A study of Mus musculus with 4 samples.

Results

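Mitochondrial rRNA fragments were examined in 4 small RNA libraries of C57BL mouse sperm, 2 from control mice and 2 from mice of the Mdd group. Control mice were left alone apart from feeding and cage cleaning. Mdd mice met a randomly chosen stressor each day, among them a tilted or empty cage, damp sawdust, white noise, strobe light, tube restraint, isolation and a disturbed light cycle, a treatment used to induce depressive-like behaviour. The study profiled short non-coding RNA of sperm after this treatment, and the labels name no genetic change in either group and no age. The extraction protocol names sperm, whereas the tissue and cell type fields name testis and testicular cells, so the purity of the sperm is not given. The labels do not say whether the replicates came from separate animals, so a p-value here speaks of the spread among these 4 libraries and no more, and that spread may be technical.

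A fragment here is a distinct read sequence of 18 nt or longer that the deposited annotation assigned to mitochondrial rRNA and to nothing else. There were 15625 such sequences among 1442059 distinct sequences of that length. They were chosen by label and length alone, and no measured level was used. The label was checked against the reference transcripts of GENCODE for GRCm38. All 15625 matched mt-Rnr1 (ENSMUSG00000064337.1, 12S rRNA, chrM:70-1024, plus strand) or mt-Rnr2 (ENSMUSG00000064339.1, 16S rRNA, chrM:1094-2675, plus strand) exactly, at 1 place each and in the sense direction. Of these, 6125 lay in 12S and 9500 in 16S. Antisense matches were limited to 9 unannotated sequences, with 31 and 18 reads in the first and second control library and 0 and 26 in the first and second Mdd library. Values are given in this order throughout. Nuclear copies of mitochondrial DNA were not searched here.

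The mitochondrial genome encodes a small-subunit rRNA, 12S, and a large-subunit rRNA, 16S, which form the RNA cores of the mitochondrial ribosome. Both are transcribed as part of a long precursor in which tRNA genes stand between them, and cutting out the tRNAs sets the ends of the rRNAs. Sperm keep mitochondria in the midpiece of the tail, and fragments of mitochondrial rRNA are a known part of sperm small RNA.

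Most reads came from a few places in these rRNAs, and their sequences are shown first because the results turn on them. Each line is GRCm38, plus strand, 5′ to 3′. Capitals mark the most read fragment of the place. The first line, chrM:1079-1153, holds the last 15 bases of the tRNA gene mt-Tv followed by the first 60 bases of 16S. The second line, chrM:70-129, holds the first 60 bases of 12S. The third line, chrM:2334-2393, holds bases 1241 to 1300 of 16S, in the peptidyl transferase region that is conserved among large-subunit rRNAs.
16S 5′ end: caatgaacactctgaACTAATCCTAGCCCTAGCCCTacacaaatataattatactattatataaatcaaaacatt
12S 5′ end: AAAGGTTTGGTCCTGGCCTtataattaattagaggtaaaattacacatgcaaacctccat
16S inner stretch: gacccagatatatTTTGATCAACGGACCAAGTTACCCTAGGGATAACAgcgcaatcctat

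Fragments are named by rRNA and by first and last base, counted from 1 at the 5′ end of that rRNA, so 16S 1-21 is the run of capitals in the first line. Fragments with the same first base form a start. The next lines show how the most read fragments of the leading starts are nested or shifted, and here the capitals mark the first 18 bases, which define a start in the count test.
16S 1-21: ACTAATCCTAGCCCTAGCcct
16S 1-29: ACTAATCCTAGCCCTAGCcctacacaaat
16S 6-29: TCCTAGCCCTAGCCCTACacaaat
16S 8-29: CTAGCCCTAGCCCTACACaaat
12S 1-19: AAAGGTTTGGTCCTGGCCt
16S 1261-1288: AACGGACCAAGTTACCCTagggataaca

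Libraries held 9706895, 16763277, 23748630 and 23806805 reads of 18 nt or longer, of which 934486, 788820, 2223523 and 934323 were mitochondrial rRNA. Reads too short to enter this count, of 15 to 17 nt, were 24.4% and 27.0% of each control library's total and 1.18% and 1.27% of each Mdd library's, so levels depend on whether they count in the total. A fragment had a median of 9, 12, 47 and 12 reads, and Mdd replicate 1 held 3840 distinct fragments against 7912 to 9711 in the other libraries. Mdd replicate 1 came without the mitochondrial rRNA label, so a sequence found there alone could not count as a fragment. This left out 609 sequences that matched the rRNAs exactly. Reads may be copies of fewer molecules, whose number is not given. Intervals and detection limits therefore cover the counting of reads only, and they may be too narrow. Control replicate 2 stood apart in length, with 0.865% of all reads of 18 nt or longer at 38 to 45 nt against 5.39% to 6.04% in the other 3 libraries. Hairpins of all 29 cell type markers looked for were found. The 8 germ cell miRNAs summed to 2359 and 2282 CPM in control and 2962 and 1043 CPM in Mdd libraries, where CPM is the read count scaled to a total of 1000000 reads of 18 nt or longer. The 4 striated muscle miRNAs summed to 28.7, 1034, 12.5 and 3.91 CPM, high in control replicate 2 alone, and mir-133b was at 0 in Mdd replicate 1. The 3 markers of smooth muscle and stroma reached 1226 CPM in control replicate 2 against 228 to 375 CPM elsewhere, and the 5 epithelial miRNAs reached 272 CPM there against 61.1 to 67.6 CPM. The 3 erythroid markers summed to 343 and 89.7 CPM in control and 499 and 198 CPM in Mdd libraries, the 3 neural ones to 32.7, 37.3, 86.7 and 11.6 CPM, and the 3 leukocyte ones to 4.84, 13.1, 2.99 and 0.882 CPM, with mir-150 at 0 in Mdd replicate 2. The part of these other cells in the results below was not tested.

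Of reads of 18 nt or longer, nuclear rRNA took 20.9% to 37.2%, tRNA 19.3% to 26.6%, piRNA 16.7% to 25.6% and miRNA 0.403% to 1.58%. Mitochondrial rRNA was smaller than the first 3 of these classes and larger than miRNA, and it varied within both groups far more than between them. It took 9.63%, 4.71%, 9.36% and 3.92% of reads of 18 nt or longer. The 95% Wilson interval reached at most 0.0186 percentage points to either side, or 0.0777 points when reads were divided by the usual number of copies per sequence. The number 1 library of each group was high and the number 2 library low, so the groups overlapped (7.17% ± 3.48 in control against 6.64% ± 3.85 in Mdd, SD, n = 2 each). The mean difference, Mdd minus control, was -0.52 percentage points (exact two-sided permutation test, p = 0.667, where 0.333 is the smallest p that 2 against 2 samples can give). With all reads as the total the shares were 7.27%, 3.44%, 9.25% and 3.87%, and the mean difference turned to 1.21 points. In bulk RNA, fewer cells of a type and less RNA per cell cannot be told apart. Mitochondrial tRNA reads shared this pattern in part, at 0.514%, 0.516%, 0.379% and 0.199% of reads of 18 nt or longer. The controls were level, whereas Mdd replicate 1 was above Mdd replicate 2. On this total both Mdd libraries were below both controls (exact two-sided permutation test, p = 0.333).

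In CPM the swing was widest at the 5′ end of 16S. Fragments whose first base lay within the first 100 bases of 16S summed to 69834, 22105, 74860 and 19828 CPM. That was a 3.16-fold gap between the control libraries and a 3.78-fold gap between the Mdd libraries, with overlap between the groups. All other mitochondrial rRNA fragments together stood at 26437, 24951, 18768 and 19418 CPM, within 1.06-fold of each other in control. Parts of this sum moved in opposite directions between the controls. 16S beyond base 100 stood at 16740, 13036, 11705 and 11007 CPM, and base 1 of 12S at 4597, 7702, 2940 and 2835 CPM. Some single starts had wide gaps between controls, 3.29-fold at base 1261 and 2.72-fold at base 748 of 16S, against 1.26-fold at base 1255. This division at base 100 was chosen after the values were seen. The rest of the rRNAs was lower in both Mdd libraries than in both control libraries (25694 ± 1050 against 19093 ± 460 CPM, SD, n = 2 each, exact two-sided permutation test, p = 0.333, the smallest possible). The gap depended on the total: scaled to 1000000 reads of any length, the values were 19977, 18226, 18547 and 19172, which overlapped.

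12S fragments, which come from the small-subunit rRNA, stood at 9696, 11915, 7063 and 8411 CPM. Both Mdd libraries were below both controls (10806 ± 1569 against 7737 ± 953, SD, n = 2 each, exact two-sided permutation test, p = 0.333). Scaled to 1000000 reads of any length, 12S stood at 7327, 8704, 6980 and 8304, and the groups overlapped. Without the start at base 1 the 12S values were 5099, 4213, 4123 and 5576 CPM, and the groups overlapped. 16S took 89.9%, 74.7%, 92.5% and 78.6% of mitochondrial rRNA reads. This share again split by replicate number and not by group, with a mean difference of 3.21 percentage points (exact two-sided permutation test, p = 0.667).

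**Figure D1:**
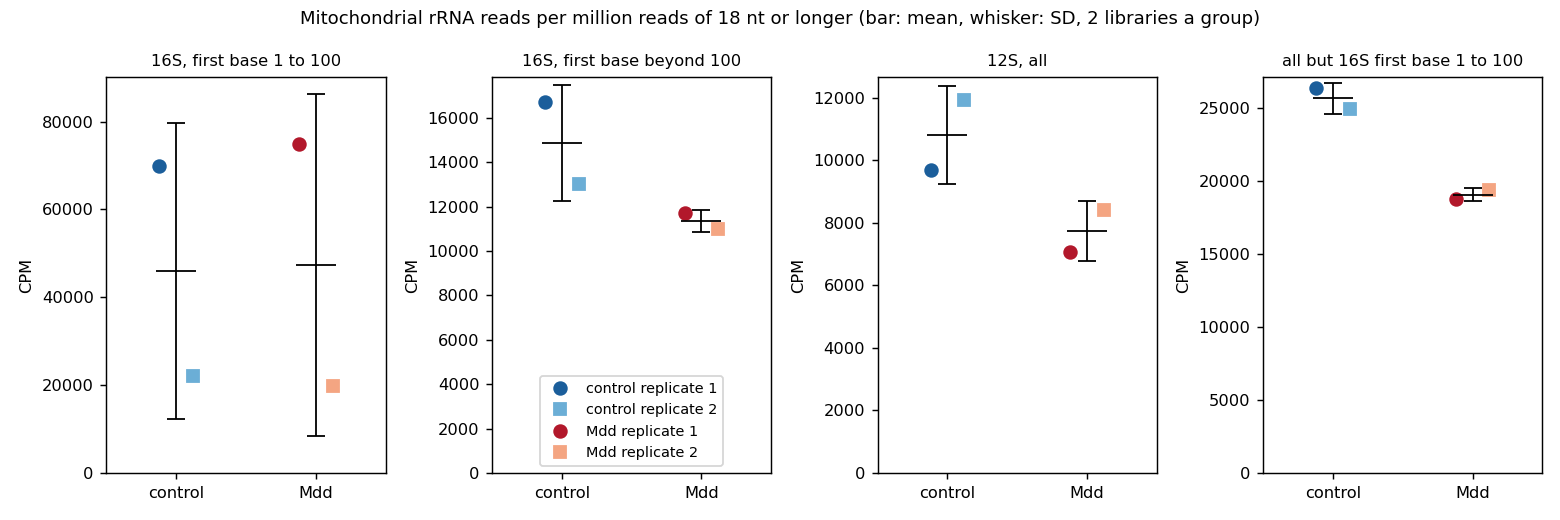
CPM of 4 sets of mitochondrial rRNA fragments in each library, with the group mean as a bar and the SD as a whisker (n = 2 libraries a group). The leftmost panel shows the 16S 5′ end, high in replicate 1 and low in replicate 2 of both groups, and the rightmost panel shows all other fragments, where the libraries of a group lie close together.

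Few fragments carried most of the reads. Of the 15625 fragments, 2109 were found in all 4 libraries and held 93.6%, 89.4%, 97.1% and 85.9% of mitochondrial rRNA reads. Another 7975 were found in a single library, which could not be Mdd replicate 1 because it came without the label. Fragments were found at 2097 first bases, 802 in 12S and 1295 in 16S, and 937 of these were seen in all 4 libraries. Across those 937 starts, log2 CPM of any pair of libraries had a Pearson r between 0.65 and 0.80, given as a description of starts that share libraries. A single start, base 1 of 16S, held 56.4%, 41.6%, 68.0% and 43.2% of mitochondrial rRNA reads. The first base of 12S held 4.78%, 16.4%, 3.14% and 7.22%. The next starts in size were base 6 of 16S, with 11.7%, 3.46%, 8.68% and 5.16%, and base 8 of 16S, with 2.91%, 1.03%, 2.26% and 1.27%. To reach 90% of reads took 84 starts in control replicate 1 and 40 in Mdd replicate 1, against 211 and 276 in the other libraries.

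Reads at the 5′ end of each rRNA had 1 leading first base, with few reads at the next bases inside the rRNA. Among reads that began at bases 1 to 5 of 12S, 99.6%, 99.7%, 99.6% and 99.5% began at base 1. For 16S the shares were 99.7%, 99.6%, 99.8% and 99.5%. At 12S the level fell from 4597, 7702, 2940 and 2835 CPM at base 1 to 1.03, 2.39, 2.36 and 3.15 CPM at base 2. At 16S it fell from 54255, 19575, 63657 and 16951 CPM at base 1 to 17.5, 12.6, 20.4 and 16.5 CPM at base 2. Further in, 16S had its second start at base 6, so that base 1 held 77.9%, 89.2%, 85.2% and 86.1% of reads that began at bases 1 to 12 of 16S, against 96.5%, 98.3%, 95.7% and 98.1% for 12S. No fragment began at base 5 of 16S, a kind of position described next. The 16S share over bases 1 to 5 therefore says nothing on base 5 and cannot be set beside that of 12S. Reads across the junction of mt-Tv and 16S numbered 87, 51, 200 and 9, and no read crossed from 12S into mt-Tv. Reads that run into 12S from the tRNA gene upstream of it, mt-Tf, were not counted. The 5′ end of 12S was therefore measured on its inner side only. At the other ends coverage was low: 37, 131, 46 and 112 reads ended at the last base of 16S, and none ended at the last base of 12S.

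**Figure D2:**
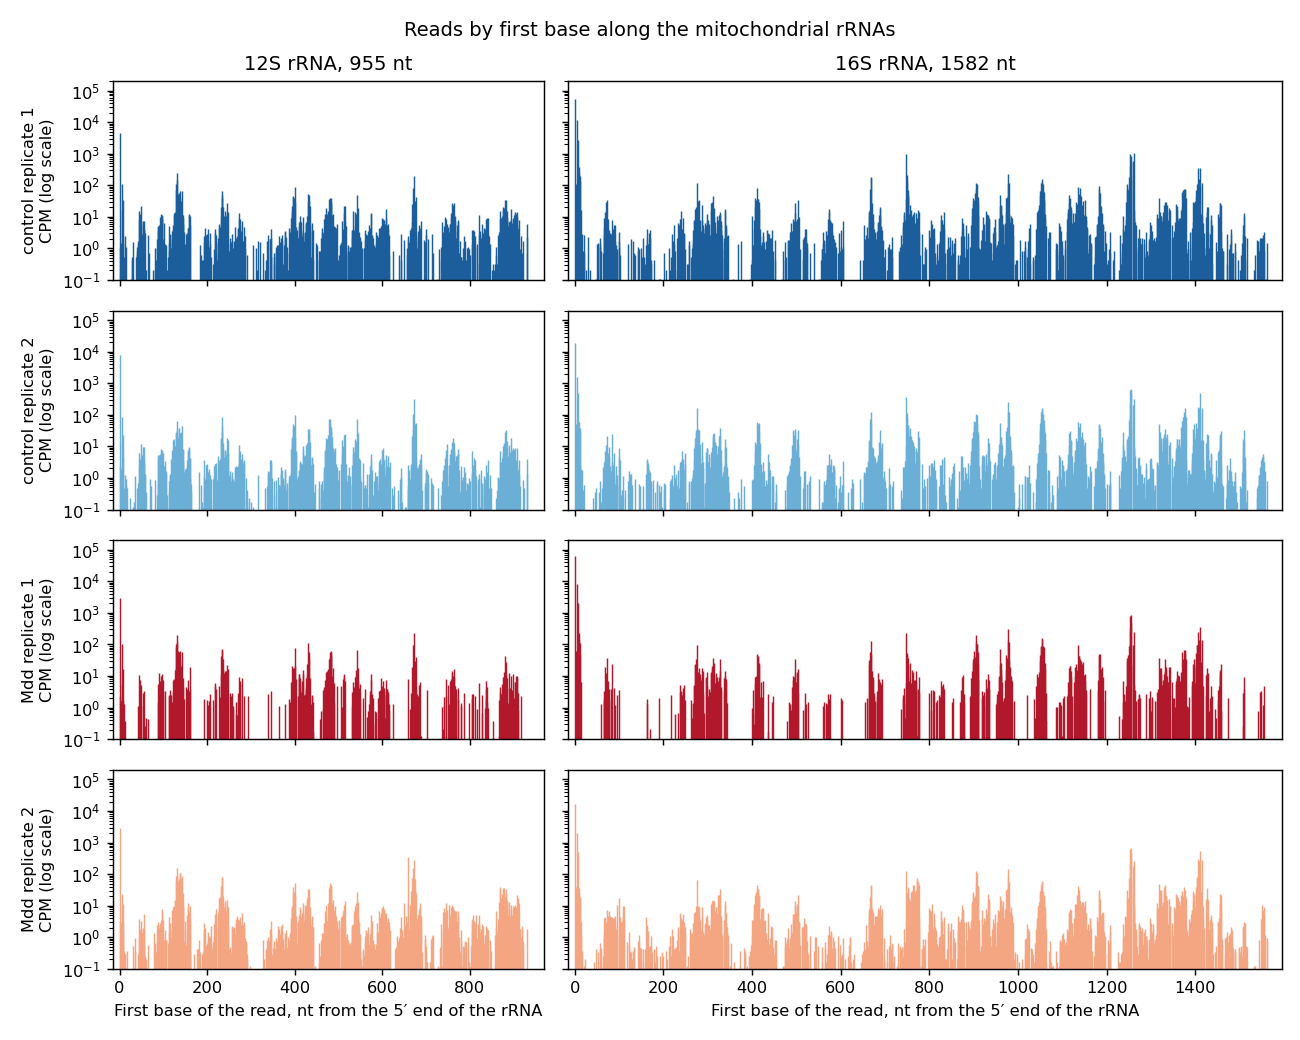
CPM (log scale) of reads by their first base along 12S (left) and 16S (right), 1 library per row and 1 line per start. The tallest line in every library is base 1 of 16S, and the peaks inside both rRNAs recur at the same places in the 4 libraries.

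The first base could not be read freely at 1 kind of site. Sequences that begin with ATC were all but missing from the files: 283 distinct sequences of 18 nt or longer, against a median of 20600.5 over the 64 first triplets and 8252 for the next rarest, ACA. In the 12S and 16S rRNAs, 40 positions begin with ATC and 1 of them had any fragment, against 85.1% of the 2463 other positions. Base 5 of 16S is such a position, and the strong start at base 8 begins directly after that ATC. The starts at bases 1261 and 1416 of 16S also follow an ATC. Whether reads of these 3 starts began 3 or more bases upstream cannot be told apart in these files, and the sources used here do not say how the ATC starts came to be missing.

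The 3′ ends were spread over many bases, and the most read length was 21 nt in every library, with 7.77%, 10.7%, 18.3% and 11.8% of mitochondrial rRNA reads. From base 1 of 16S a ladder of fragments covered every length from 18 to 45 nt. 16S 1-21 had 52447, 44985, 360347 and 66308 reads, or 5403, 2684, 15173 and 2785 CPM. Mdd replicate 1 was far above the other 3 libraries, and Mdd replicate 2 lay between the controls, so the groups overlapped. 16S 1-29 had 48902, 35751, 81988 and 32247 reads, or 5038, 2133, 3452 and 1355 CPM. Control replicate 1 was highest there, and the groups again overlapped. The 8 fragments of highest mean CPM all began at base 1 of 16S and ended between bases 19 and 30, and together they held 30.6%, 28.9%, 48.4% and 29.4% of mitochondrial rRNA reads.

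The neighbours of these fragments in the ladder moved with them. 16S 1-19, 16S 1-20 and 16S 1-22 were, like 16S 1-21, highest in Mdd replicate 1. 16S 1-20 stood at 3125, 1766, 7537 and 1723 CPM and 16S 1-22 at 2031, 1205, 5213 and 1111 CPM. 16S 1-27, 16S 1-28 and 16S 1-30 were, like 16S 1-29, highest in control replicate 1. 16S 1-27 stood at 4120, 1567, 3711 and 1504 CPM and 16S 1-30 at 3950, 1495, 3000 and 900 CPM. The groups overlapped for each of these 6 fragments. At the long end, 16S 1-43 stood at 1836, 12.3, 997 and 77.6 CPM, a local peak of the ladder in all 4 libraries.

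The ladder had 2 broad parts whose balance differed between libraries. Fragments of 19 to 22 nt made up 23.1%, 35.6%, 50.1% and 38.8% of reads that began at base 1 of 16S. Both Mdd libraries were above both controls (29.3% ± 8.83 against 44.5% ± 7.94, SD, n = 2 each, exact two-sided permutation test, p = 0.333, the smallest possible). Fragments of 24 to 30 nt made up 44.9%, 45.8%, 29.8% and 47.7%, and only Mdd replicate 1 was low. The ratio of the shorter to the longer part was 0.514, 0.777, 1.68 and 0.815, without overlap between the groups, although Mdd replicate 2 exceeded control replicate 2 by little. These length bands were chosen after the ladder had been seen. Fragments of 38 to 45 nt from this start took 12.3%, 0.756%, 5.85% and 1.88%, lowest in control replicate 2, the library that was short of long reads throughout. Mdd replicate 2 was also low here, although 38 to 45 nt made up 5.70% of all its reads of 18 nt or longer.

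From base 1 of 12S reads gathered at fewer lengths than in the 16S ladder, although each length from 18 to 45 nt was found in at least 1 library. Reads of 19 nt took 23.0%, 27.1%, 25.9% and 28.3% of that start, reads of 21 nt took 16.03%, 17.5%, 18.6% and 30.1%, and reads of 37 nt took 25.4%, 14.9%, 22.3% and 11.5%. 12S 1-19 was the most read of these exact fragments by mean CPM, with 10267, 34952, 18064 and 19100 reads, or 1058, 2085, 761 and 802 CPM. For 12S 1-19 both Mdd libraries were below both controls. A sequence of the same length that differs in its last base, 12S 1-18 plus A, had more reads in every library and is described under other observations. 12S 1-37 stood at 1168, 1150, 656 and 325 CPM, also lower in both Mdd libraries. Lengths of 22 and 27 to 29 nt, which were common in the 16S ladder, were rare here: 12S 1-28 had 4.94, 15.6, 4.17 and 4.03 CPM.

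Over all mitochondrial rRNA reads the mean length was 29.6, 26.3, 26.4 and 26.9 nt. The difference, Mdd minus control, was -1.27 nt (27.9 ± 2.29 against 26.7 ± 0.332, SD, n = 2 each, exact two-sided permutation test, p = 1.0), and it rested on control replicate 1: without that library the difference was 0.35 nt. Reads of 38 to 45 nt took 18.1%, 2.05%, 9.59% and 7.05%. Limited to 18 to 37 nt, the means were 27.0, 26.1, 24.9 and 25.9 nt and both Mdd libraries were below both controls (exact two-sided permutation test, p = 0.333). Reads of 17 nt with the label, just outside the length rule, numbered 14799, 24788, 2818 and 1446, and those of 18 nt, just inside, 20335, 40204, 45833 and 25964.

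**Figure D3:**
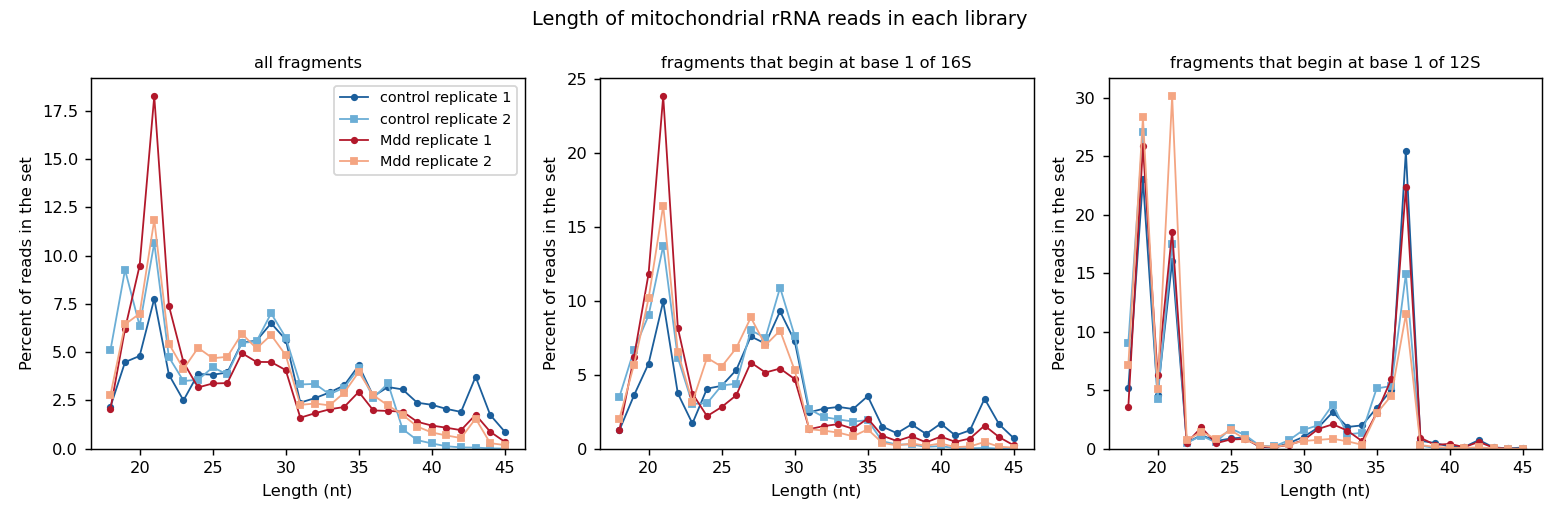
Percent of reads at each length (nt) in each library, for all mitochondrial rRNA fragments, for those that begin at base 1 of 16S and for those that begin at base 1 of 12S. The 21 nt peak of 16S is highest in Mdd replicate 1 (23.8% of that start). The 12S panel has its 3 tallest peaks at 19, 21 and 37 nt in every library. Smaller 12S peaks stand at 23, 32 and 42 nt.

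The second start of 16S, at base 6, had the widest gap between the control libraries among the 8 largest starts. It stood at 11244, 1628, 8127 and 2024 CPM, a 6.91-fold gap between controls and a 4.02-fold gap between Mdd libraries. Without reads of 38 to 45 nt, which control replicate 2 was short of, it stood at 5497, 1486, 5374 and 1750 CPM, a 3.70-fold gap between controls, narrower than the 4.17-fold gap at base 8 measured in the same way, and a 3.07-fold gap between Mdd libraries. Its reads had a mean length of 33.7, 26.4, 30.3 and 26.3 nt, against 28.5, 25.4, 25.2 and 24.9 nt at base 1, longer in each library. The start at base 8 followed the same order, at 2798, 485, 2119 and 500 CPM, with gaps of 5.76-fold and 4.24-fold. The first base of 12S did not: it stood at 4597, 7702, 2940 and 2835 CPM, highest in control replicate 2, and both Mdd libraries lay below both controls.

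Inside 16S, fragments with different first bases shared a last base. The starts at bases 1254, 1255, 1256 and 1261 each had their most read fragment end at base 1288, in the conserved stretch shown above. 16S 1254-1288 had 6158, 5207, 12469 and 7693 reads and 16S 1255-1288 had 4454, 5281, 12174 and 7890. Reads that ended at base 1288 were 3.44%, 2.79%, 2.04% and 3.37% of mitochondrial rRNA reads. These starts varied little: base 1255 stood at 840, 665, 841 and 676 CPM and base 1256 at 543, 501, 480 and 460 CPM. Base 1254 stood at 959, 631, 795 and 622 CPM. The fourth, base 1261, was the exception, at 1015, 309, 245 and 263 CPM, high in control replicate 1 alone, and it is 1 of the starts that follow an ATC. The groups overlapped at bases 1254 and 1255, and both Mdd libraries were below both controls at bases 1256 and 1261. Both of the latter depended on the total. Scaled to 1000000 reads of any length, base 1256 stood at 410, 366, 475 and 454, with both Mdd libraries above both controls, and its log2 fold change with TMM scaling was also positive, at 0.28. Base 1261 stood at 767, 226, 243 and 260 on that scale, where the groups overlapped.

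Beyond these, the largest starts inside 16S were base 1410, at 356, 476, 362 and 522 CPM, and base 748, at 978, 359, 238 and 130 CPM. The groups overlapped at base 1410, and at base 748 both Mdd libraries were below both controls. In 12S the largest start after base 1 was base 672, at 192, 312, 232 and 272 CPM, where the groups overlapped. Bases 1401 to 1500 of 16S held 1.81%, 3.47%, 1.68% and 5.54% of reads, led by base 1410. By contrast, first bases 101 to 200 of 16S, next to the richest window of all, summed to 37.3, 46.4, 5.56 and 71.0 CPM. Away from base 1 of 12S and the first 100 bases of 16S, 41.0%, 40.6%, 44.0% and 40.5% of reads began with T. That was against 28.9% of the distinct fragments there and 26.4% of all bases of the rRNAs. Part of these reads came from 1 stretch, since the much-read starts at bases 1253, 1254, 1255, 1256 and 1259 of 16S all begin with T. The share of T without them was not measured, so a general preference for T cannot be read from these values.

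**Figure D4:**
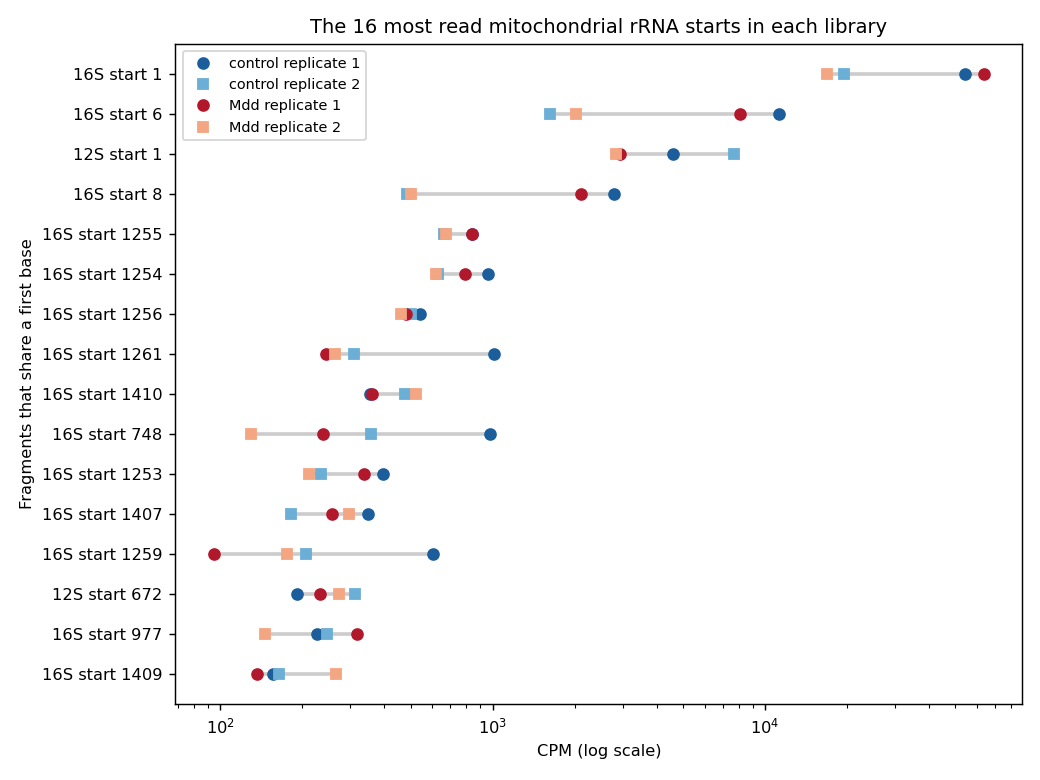
CPM (log scale) of the 16 most read starts in each library, with a grey line from the lowest to the highest library. Replicates 1 of both groups lie together and above replicates 2 at bases 1, 6 and 8 of 16S, whereas bases 1254 to 1256 of 16S span a narrow range.

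The count test compared Mdd with control for every fragment, fitted and adjusted over all 98704 sequences that passed the filter on low counts. Of the 15625 fragments, 4895 passed that filter. edgeR's quasi-likelihood test with Benjamini-Hochberg adjustment called 0 of them at 0.05, as it called 0% of all sequences tested, and the lowest adjusted p among the fragments was 0.246. An unadjusted p under 0.05 was reached by 358 fragments, or 7.31%, against 13.9% of all sequences tested. DESeq2 called 5, all higher in Mdd, or 0.239% of those it gave an adjusted p, against 1.34% of all sequences with one. Both shares were under the background. The median log2 fold change of the fragments was 0.06, against -0.05 over all sequences tested, with 2527 positive and 2368 negative. With library size as the only scaling the medians were -0.32 and -0.38, and with RLE scaling 0.20 and 0.07, so the median of the fragments and of all sequences moved together with the scaling.

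Counting by overlap gave the same picture. Both Mdd libraries lay above both controls in CPM for 417 fragments, or 8.52%, against 8.5% of all sequences tested. Both lay below for 1128 fragments, or 23%, against 29.2% of all sequences tested. The share above was at the background and the share below was under it. No read in either Mdd library was found for 312 tested fragments, or 6.37%, against 12.1% of all sequences tested. No read in either control was found for 83, or 1.7%, against 2.08% of all sequences tested, so neither share exceeded the background.

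Summing each start, whatever the 3′ end, gave the same result. The sums took in every sequence with the same first 18 bases, including reads with extra bases that carry other labels, and a start was kept where fragments made up at least 50% of its reads. Of 1806 such starts, 1366 were tested among 58154 in all. edgeR's quasi-likelihood test called 0 of them, as it called 0% of all starts tested, with a lowest adjusted p of 0.155. An unadjusted p under 0.05 was reached by 42, or 3.07%, against 15.7% of all starts tested. DESeq2 called 2, bases 658 of 12S and 891 of 16S, or 0.193% of those it gave an adjusted p, against 1.91% of all starts with one. Both Mdd libraries were above both controls for 115 starts, or 8.42%, against 7.56% of all starts tested, and below for 320, or 23.4%, against 33.3%.

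The most read fragments had wide errors. 16S 1-21 had a log2 fold change of 1.24 (SE 1.43, edgeR adjusted p = 1.0), and without Mdd replicate 1 it was -0.0011. 16S 1-29 had -0.39 (SE 1.16, edgeR adjusted p = 1.0). For the start at base 1 of 16S as a whole the log2 fold change was 0.37 (SE 2.70), for base 6 it was -0.08 (SE 1.74), for base 8 -0.08 (SE 1.33) and for base 1 of 12S -0.40 (SE 1.52), each with an edgeR adjusted p of 1.0. The 4 inner starts had values from -0.88 (SE 0.945, base 1261) to 0.47 (SE 0.902, base 1254), also at an edgeR adjusted p of 1.0. On simulated counts with a dispersion of 2, near the 2.12 estimated here, the same fit recovered 0% of sequences changed 16-fold, and with a dispersion of 0.1 it recovered 99%.

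The fragments of lowest p were all rarely read. Those on the higher side are shown with capitals for the first 18 bases, together with 1 fragment that was abundant in a single library.
12S 129-163: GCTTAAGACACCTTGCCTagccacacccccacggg
12S 132-154: TAAGACACCTTGCCTAGCcacac
16S 1435-1469: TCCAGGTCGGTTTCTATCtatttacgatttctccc
12S 658-700: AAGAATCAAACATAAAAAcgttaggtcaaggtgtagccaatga
Among these, 12S 129-163 (chrM:198-232) had 7, 9, 170 and 422 reads, with a log2 fold change of 4.76 (SE 1.20, edgeR adjusted p = 0.269). 12S 132-154 (chrM:201-223) had 0, 0, 162 and 69 reads (edgeR adjusted p = 0.278). 16S 1435-1469 (chrM:2528-2562) had 0, 0, 16 and 12 reads (edgeR adjusted p = 0.246). In each of the 3 both Mdd libraries were above both controls. A count of 0 allows up to 3 reads, or 0.309 and 0.179 CPM in the control libraries. Multiplied by the usual 7 and 10 copies of a sequence, the limits become 2.16 and 1.79 CPM, which leaves the third fragment, at 0.674 and 0.504 CPM in Mdd, under the limit.

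On the lower side, 16S 1129-1163, 12S 270-302 and 16S 1368-1394 each had 5, 10, 0 and 0 reads, and 6 fragments with those same reads shared the lowest p (edgeR adjusted p = 0.246). With the usual 44 and 7 copies of a sequence in the Mdd libraries, a sequence with no read could still stand at 5.56 and 0.882 CPM, both above the 0.515 and 0.597 CPM of the controls, so a difference from the controls was not detectable at this depth in either Mdd library. 12S 658-700 (chrM:727-769) was singled out for its values. Its reads numbered 9, 19, 86 and 8259, or 0.927, 1.13, 3.62 and 347 CPM, which is high in Mdd replicate 2 alone (edgeR adjusted p = 0.338, DESeq2 adjusted p = 0.000411). The other 4 fragments called by DESeq2 were 12S 129-163, 12S 132-154, 16S 1058-1080 with 0, 0, 150 and 58 reads, and 16S 329-351 with 0, 0, 110 and 61 reads.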

How the data were processed

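Small RNA was sequenced from 2 control and 2 Mdd libraries. Per the file headers, each deposited table gives 1 distinct sequence per line with its raw read count, its length and an annotation, and the deposited counts and lengths (15 to 45 nt) entered unchanged. The submitters' processing notes name mm9 and DESeq2, with no versions. Trimming, aligner and annotation source: not given in the sources used here.

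The sequence was the key that joined the tables. Mdd replicate 1 came without the mitochondrial rRNA label, so each sequence took it from any other file that gave it. CPM is the read count scaled to 1000000 reads of 18 nt or longer. Positions are exact matches to GENCODE transcripts of GRCm38, and no mm9 coordinate was used. Each library's limit for a count of 0 is 3 reads. The usual copies per sequence were 7, 10, 44 and 7.

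Counts of sequences and of starts (shared first 18 bases) were fitted with edgeR 4.0.16 in R 4.3.3 (quasi-likelihood, TMM, filterByExpr, two-sided), with Benjamini-Hochberg adjustment over the whole table and a threshold of 0.05. DESeq2 1.42.0 was an alternative. Shares and lengths were compared by exact two-sided permutation over samples with scipy 1.17.1 in Python 3.11.15. The fit was tested on simulated data.

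Members, lists and rules were chosen with earlier results of these data known. Named were the 8 fragments of highest mean CPM, the most read fragment of each of the 8 largest starts, those 8 starts, and in each direction up to 4 fragments past the threshold, or the 3 of lowest p where fewer than 2 passed. The fragments and starts called by DESeq2 or without the filter were named after their values were seen.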

Additional observations from a re-analysis of the deposited data

Results flagged for a closer look

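In Mdd replicate 1, 609 further sequences of 18 nt or longer, with 15090 reads, matched 12S or 16S exactly in the sense direction without carrying the mitochondrial rRNA label. They drew attention because they lie outside the main measurement, in the 1 library whose file does not use that label. They were seen in that library alone, with a median of 20 reads and at most 134, and 252 lay in 12S and 357 in 16S. Their reads equal 0.679% of the labelled mitochondrial rRNA reads of that library.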

How the results depend on the processing

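The alternatives to the planned fits and shares were listed with earlier results known. An exact match in place of the label, lengths of 18 to 37 nt, every alternative for the fragments outside the 16S 5′ end, and all reads as the total for 12S and single starts were chosen after seeing the data. The difference in the share of mitochondrial rRNA reads, -0.52 percentage points, turned to 0.926 with all lengths counted, 1.21 with all reads as the total and 0.0277 without nuclear rRNA reads in the total, and it ran from -3.24 to 2.20 as each library was left out. The difference in mean length ran from -2.89 to 0.349 nt and that in the 16S share from -4.42 to 10.8 percentage points with each library left out. The lower level outside the 16S 5′ end stayed apart between the groups with genome-matched reads as the total (-9144 CPM). With all reads as the total (-242 CPM) and with TMM scaling (-1110 CPM) the groups overlapped. Leaving out a library could not turn the direction, because both Mdd libraries lay below both controls, so those alternatives say nothing on it.

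edgeR called 0 fragments and 0 starts. DESeq2 called 5 fragments and 2 starts (0.239% and 0.193% of those with an adjusted p, against 1.34% and 1.91% of all sequences and starts). Without the filter on low counts edgeR called 4 fragments and 2 starts (0.0256% and 0.111%, against 0.0227% and 0.0479%). Leaving out 1 library gave 0 to 53 fragments and 0 to 34 starts. Without Mdd replicate 1 there were 53 and 34 (0.76% and 2.24%, against 2.07% and 4.88%), without Mdd replicate 2 there were 9 and 22 (0.151% and 1.6%, against 0.304% and 1.35%), and without either control 0. The 4 fragments called without the filter were 12S 658-700, 16S 1-20, 16S 1-21 and 16S 1-22. The 2 starts were base 658 of 12S and base 1 of 16S. In that setting 16S 1-21 had a log2 fold change of 1.44 (edgeR adjusted p = 1.77e-22). Base 1 of 16S had 0.497 (edgeR adjusted p = 4.2e-08). Neither was called with the filter, so these calls depended on it. With the replicate number as a block, 0 fragments and 1 start (0.0732%, against 0.0464% of all starts) were called, base 775 of 16S (0, 85, 92 and 1451 reads, edgeR adjusted p = 0.0429). The labels do not say that the numbers pair libraries. Deviations from the group means correlated at 0.0292 over sequences and 0.145 over mitochondrial rRNA sequences between libraries of 1 number.

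No named fragment or start was past the threshold in the planned edgeR fit, and many log2 fold changes near 0 changed sign; the cause was not tested. With library size only, 16S 1-27 was -0.14, 16S 1254-1288 -0.17, 16S 1256-1288 -0.048 and base 1256 -0.18. With all reads as the total, the difference at base 1256 turned from -51.8 to 76.3 CPM. 16S 1-28 was 0.041 with RLE scaling, 0.30 with DESeq2, 0.084 without the filter, 0.018 with the block and 0.0042 with reads divided by the usual copies, and 16S 1-30 was 0.051 with DESeq2. Base 6 was 0.030, 0.31, 0.066 and 0.36, and base 8 0.029, 0.31, 0.064 and 0.24, with RLE scaling, DESeq2, no filter and the block. With each library left out, values ran from -0.0011 to 1.85 for 16S 1-21, -0.0089 to 1.63 for 16S 1-22, -0.23 to 1.21 for 16S 1-19, -0.46 to 0.85 for 16S 1-27, -0.62 to 0.71 for 16S 1-28, -0.87 to 0.29 for 16S 1-29 and -1.05 to 0.47 for 16S 1-30. They ran from -0.19 to 1.34 for 16S 6-29, -0.47 to 1.18 for 16S 8-29, -0.30 to 0.62 for 16S 1254-1288, -0.0062 to 0.45 for 16S 1256-1288 and -1.77 to 0.16 for 16S 1261-1288. For starts of 16S they ran from -0.42 to 1.34 at base 1, -1.04 to 1.99 at base 6, -1.08 to 1.75 at base 8, -0.027 to 0.52 at base 1256 and -1.52 to 0.22 at base 1261. With 1 library in a group, that library was assumed to vary like the others.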

Other observations

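Beside the exact fragments, every library held reads that followed an rRNA for at least 18 bases and then ended in 1 to 3 bases that the rRNA does not have. The deposited tables do not mark them as genomic, and they were not counted as mitochondrial rRNA. Such tailed reads equalled 25.1%, 27.4%, 25.7% and 30.2% of the exact mitochondrial rRNA reads, in the same order of libraries as before. For miRNA hairpins, handled in the same way, they equalled 14.8%, 12.4%, 16.7% and 16.9%. Of the mitochondrial tails of 1 nt, 89.2%, 88.3%, 85.2% and 81.1% were A, whereas of the miRNA tails of 1 nt 75.9%, 74.3%, 74.0% and 69.3% were T. Mitochondrial tails of 2 nt were AA in 66.7%, 60.2%, 57.7% and 55.5%, and tails of 3 nt were AAA in 59.5%, 58.0%, 62.8% and 46.4%. G tails were few except in Mdd replicate 2, at 0.472%, 1.43%, 0.716% and 8.16% of the mitochondrial tails of 1 nt and 1.02%, 2.46%, 1.07% and 10.5% of the miRNA tails. A changed last base and an added base cannot be told apart in these files.

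Tailed reads were often labelled as piRNA, which took 27.5%, 38.2%, 40.3% and 33.8% of them, while 72.2%, 61.3%, 59.5% and 65.5% had no annotation. The most read were 12S 1-18 plus A and 16S 1-20 plus A, shown with the extra base in capitals.
12S 1-18 plus A: aaaggtttggtcctggccA
16S 1-20 plus A: actaatcctagccctagcccA
12S 1-18 plus A had 14304, 38726, 37583 and 29189 reads and the piRNA label, against 2301, 11682, 2500 and 4817 reads of 12S 1-18 without the A. 16S 1-20 plus A had 8561, 7220, 42487 and 16681 reads, against 30334, 29607, 178982 and 41030 reads of 16S 1-20. For 12S 1-18 the tailed form was the more read in all 4 libraries, and for 16S 1-20 the plain form was. These pairs do not stand for all ends of either rRNA.

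The last triplet of reads had a gap like that of the first. Of the 64 last triplets, TGG was the rarest, with 762 distinct sequences of 18 nt or longer, against a median of 18128 and 6594 for the next rarest, TAC. Sequences that begin with ATC held 0.0043%, 0.0044%, 0.0035% and 0.0076% of reads. Among the 40 positions of the rRNAs that come directly after an ATC, 38 had fragments, and by mean CPM the leading ones were bases 8, 1261 and 1416 of 16S. What part trimming had in this was not tested.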
